A study of Mus musculus with 23 samples.

Results

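The nuclear genes for the subunits of respiratory complexes II, III, IV and V were followed through the hippocampus of 23 mice. Members were all protein-coding genes of the deposited count table whose symbol began Sdh (a to d only), Uqcr, Atp5, or Cox followed by 4i, 5, 6, 7 or 8, together with Cyc1. This gave 48 of 37173 genes, of which 4 belonged to complex II, 9 to complex III, 18 to complex IV and 17 to complex V. Read counts were high enough to test 47 of them, and Cox8c, with 0 to 2 reads a library, was not tested. The rule itself uses only gene type and symbol, but this set of genes was chosen with earlier results of these data known.

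Both hippocampi of each mouse, aged about 5 months, gave 1 poly-A RNA library, so each library is 1 animal. The 4 genotypes were wild type (WT, n = 6), homozygous loss of p16 (p16KO, labelled P16<KO/KO>, n = 6), the homozygous App knock-in (AppNLGF, labelled APP<NLGF/NLGF>, n = 5) and both together (AppNLGF_p16KO, n = 6). p16 is the cyclin-dependent kinase inhibitor made from Cdkn2a, and the NLGF allele puts familial Alzheimer mutations into the mouse's own App gene. The groups share no other labelled allele or treatment, and the mutations are in the whole animal, not in 1 cell type. Group names stand for libraries so labelled, since reads of Cdkn2a were too few to check a genotype. They summed to 17 in WT, 4 in p16KO, 25 in AppNLGF and 24 in AppNLGF_p16KO, and the labels do not say which part of the gene was removed. Library numbers run by genotype, and the labels do not say whether they follow the order of handling. If they do, genotype and order of handling cannot be told apart.

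Complex II, succinate dehydrogenase, takes electrons from succinate in the citric acid cycle and is encoded wholly in the nucleus. Complex III passes electrons from ubiquinol to cytochrome c, complex IV, cytochrome c oxidase, passes them to oxygen, and complex V, the ATP synthase, uses the resulting proton gradient to make ATP. Complexes III to V join nuclear subunits to a few encoded in mitochondrial DNA, and neurons depend on this pathway for most of their ATP. Several complex IV subunits exist as a common form and a minor form, the latter typical of heart, skeletal muscle, lung or testis. The c subunit of complex V is encoded by several genes.

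The promoters of these genes are described first, as background. Whether their motifs bear on the members' levels was not tested. A RefSeq promoter, 250 bases before to 50 after the listed start (GRCm38.p6), was found for 36 of the 48 members, in 39 windows. The motif of ETS factors (letters CTTCCGG, either strand), read in respiratory genes by the GA-binding protein, was present in 33.3% of member windows and 11.6% of the 21263 windows of all protein-coding genes. The core of the motif of nuclear respiratory factor 1 (CGCATGCG, which reads the same on both strands) was in 17.9% of member windows and 2.52% of all windows. This core was chosen after the matches of a longer form, which were fewer, had been seen in the same windows. CCAAT was in 53.8% against 38.2%, AAGATGGCG (the YY1 motif) in 5.13% against 1.83%, and TGACGTCA (the cyclic AMP response element) in 2.56% against 2.23%, all on either strand. None of the 5 motifs contains another. The ETS letters were in 44.4% (8 of 18) of the windows of the members called higher in AppNLGF_p16KO. In the windows of the other members they were in 23.8% (5 of 21). In the same order the shares were 22.2% and 14.3% for the core of nuclear respiratory factor 1, and 55.6% and 52.4% for CCAAT. They were 5.56% and 4.76% for the YY1 motif and 0% and 4.76% for the cyclic AMP response element. These are matches of letters only, and the differences were not tested. The 200 bases before the start of 4 called members are given 5′ to 3′, with ETS and nuclear respiratory factor 1 matches in capitals.
Cox6a1, chr5:115348959-115349158, minus strand: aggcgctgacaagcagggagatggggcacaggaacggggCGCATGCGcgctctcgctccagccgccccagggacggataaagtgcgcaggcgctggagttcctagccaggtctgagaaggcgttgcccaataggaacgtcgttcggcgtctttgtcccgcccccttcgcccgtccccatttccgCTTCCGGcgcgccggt
Cox8a, chr19:7217617-7217816, minus strand: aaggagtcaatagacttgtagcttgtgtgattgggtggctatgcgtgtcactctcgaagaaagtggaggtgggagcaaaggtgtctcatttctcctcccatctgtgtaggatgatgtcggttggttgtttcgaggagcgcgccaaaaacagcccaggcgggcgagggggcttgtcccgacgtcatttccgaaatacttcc
Atp5e, chr2:174464102-174464301, minus strand: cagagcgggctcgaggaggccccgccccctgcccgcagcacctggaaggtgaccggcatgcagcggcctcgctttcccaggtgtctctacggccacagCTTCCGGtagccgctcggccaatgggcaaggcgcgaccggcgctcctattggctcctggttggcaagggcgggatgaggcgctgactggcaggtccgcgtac
Uqcr11, chr10:80406822-80407021, minus strand: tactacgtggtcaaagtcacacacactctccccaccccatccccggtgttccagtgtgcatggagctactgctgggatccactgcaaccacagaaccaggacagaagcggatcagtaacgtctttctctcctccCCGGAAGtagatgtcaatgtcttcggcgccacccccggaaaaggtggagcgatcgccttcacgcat
These are the called members with the smallest p that had 1 listed start and little overlap with the gene itself, leaving out Uqcrc1, whose match lies wholly after the start. The first letter of the ETS match lies 16 bases before the start in Cox6a1, 102 in Atp5e and 66 in Uqcr11. The last 23 bases shown for Cox6a1, with its ETS match, lie inside the gene as bounded in the deposited data. In Cox8a an ETS match begins 5 bases before the start and runs across it, so its last letters fall outside the bases shown. A further ETS match of Cox8a lies wholly after the start. The nuclear respiratory factor 1 match of Uqcr11 also runs across the start.

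Libraries held 40693561 to 61178839 counts (median 55138908), and the members took 0.669% to 0.976% of them. The tissue was checked by its markers: all 10 genes of a list for hippocampal granule and pyramidal neurons were present in each group, summing to between 1109 and 1534 CPM (counts scaled to a common library size) in each library. Choroid plexus genes, from tissue beside the hippocampus, summed to between 122 and 5737 CPM and differed widely within every genotype. Microglial genes summed to at most 342 CPM in mice without the App knock-in (296 to 333 in WT) and at least 355 CPM in mice with it (380 to 421 in AppNLGF_p16KO). Astrocyte genes summed to 1560.4 to 1718 CPM in WT and 1724 to 2177 in AppNLGF_p16KO. No gene of these lists was at 0 in a group, and the part of other cell types in the members' values was not tested. Library AppNLGF_p16KO 21 stood apart in principal components (squared distance 12.6, limit 11.1). It had the lowest sum of hippocampal neuron genes (1109 CPM) and the highest of oligodendrocyte genes (7159 CPM, against 3963 to 5366 in the other 3 genotypes), and also the highest median of the members. In bulk tissue, a change in the number of cells of a type and a change in RNA per cell cannot be told apart.

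In WT hippocampus the subunits of each complex spanned a wide range of levels, expressed as normalised CPM per kilobase of transcript. In complex II the most abundant was Sdha, the flavoprotein that holds the catalytic site, at 175 ± 11.2 CPM per kb (SD, n = 6), and the least was the membrane anchor Sdhc at 34.9. In complex III, Uqcrh, the hinge protein that helps dock cytochrome c, reached 229 and the small accessory subunit Uqcrb 44.8. The level of Uqcrb is uncertain, since 43.2% of the 50-base windows in its transcript also occur in other genes. Cox4i1, the largest nuclear subunit of complex IV, reached 581, followed by Cox6a1 at 431 and Cox8a at 409.9. In complex V the catalytic beta and alpha subunits, Atp5b and Atp5a1, led with 690.0 and 401. Neighbours could overlap between mice, as Uqcrh and Uqcrq, at 229 and 220.3, or Cox6a1 and Cox8a did, while every mouse had more Atp5b than Atp5a1 per kb.

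**Figure D1:**
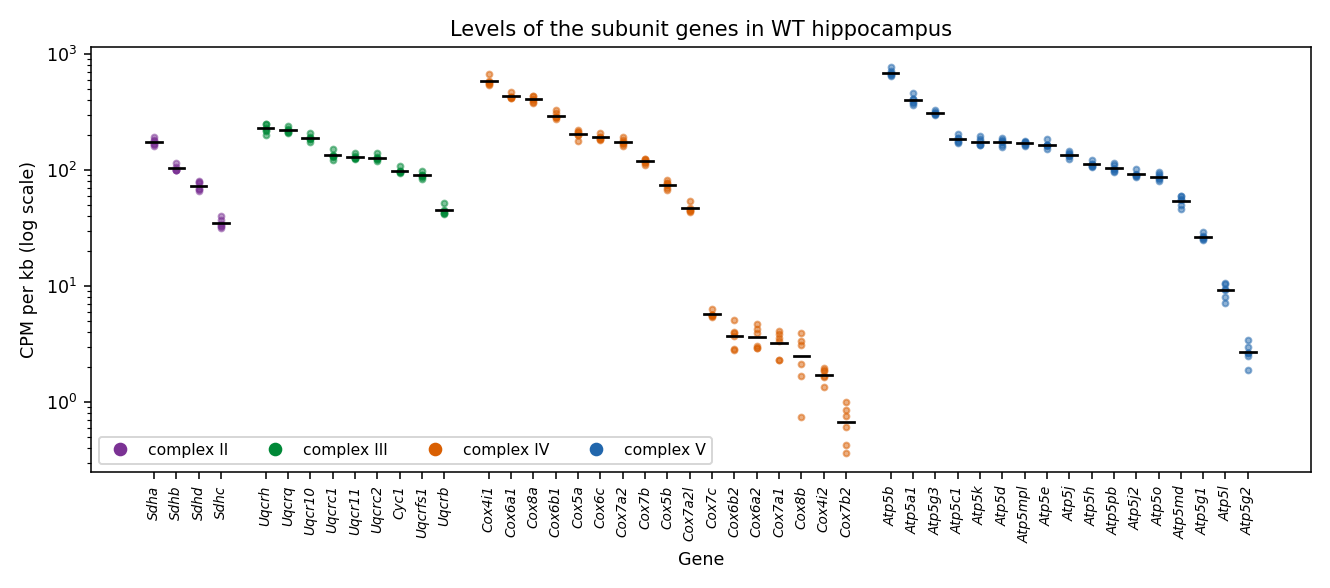
Levels of the subunit genes in the 6 WT mice, in normalised CPM per kb of transcript on a log axis. Points are mice, bars are means and colours are complexes (Cox8c, with no WT reads, is left out). Atp5b is highest at 690.0, and Cox7c, Atp5l, Atp5g2 and the minor forms of complex IV have means below 10. Levels of Cox7c, Atp5l and Atp5g2 are uncertain, since most 50-base windows in their transcripts also occur in other genes.

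Minor forms were rare in every genotype. Cox4i2, the form inducible in lung, made up 0.297% ± 0.0488 (SD, n = 6) of Cox4i expression per kb in WT. Cox6a2 and Cox7a1, the heart and muscle forms, made up 0.837% and 1.82% of their pairs. Cox6b2 and Cox7b2, known from testis, made up 1.25% and 0.556%, and Cox8b, another muscle form, 0.602%. Among the 3 genes for the c subunit that forms the rotor ring of complex V, Atp5g3 carried most expression, with Atp5g1 at 7.83% and Atp5g2 at 0.790%. In AppNLGF_p16KO the same shares were 0.301% for Cox4i2, 0.900% for Cox6a2, 1.26% for Cox6b2, 1.99% for Cox7a1, 0.360% for Cox7b2, 0.538% for Cox8b and 7.42% for Atp5g1. For each of them the WT and AppNLGF_p16KO ranges overlapped. Means in p16KO and AppNLGF were 0.273% and 0.330% for Cox4i2, 0.949% and 1.01% for Cox6a2, 1.53% and 1.72% for Cox6b2, and 8.09% and 7.68% for Atp5g1. Levels of genes with processed copies are uncertain. Of the 50-base windows in the transcript, 100% in Atp5g2, 68.5% in Atp5l, 56.2% in Atp5g1, 53.0% in Cox7c and 50.5% in Atp5h also occurred in another gene's transcript, and reads there may have been discarded or counted elsewhere. The share was over 10% in 14 members and 0 in 25. Members called higher in AppNLGF_p16KO were among the former. They were Uqcrb (43.2%), Atp5md (40.6%), Cox5b (25.9%), Cox7a2l (19.8%), Cox6c (17.2%), Cox6a1 (12.3%) and Uqcr11 (10.9%).

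AppNLGF_p16KO mice differed most from WT. In this comparison 23 of 47 members rose and 0 fell by edgeR's quasi-likelihood test with Benjamini-Hochberg adjustment over 19423 genes, against 6.1% of all genes tested that rose and 3.46% that fell. Unadjusted p-values were under 0.05 for 38 higher members (14.7% of all genes) and for 1 lower member, Atp5l (13.1% of all genes), and DESeq2 called 24 members, all higher, among 2592 genes (1401 higher and 1191 lower). Higher members numbered 1 of 4 in complex II, 6 of 9 in complex III, 9 of 17 in complex IV and 7 of 17 in complex V. The median log2 fold change was 0.24 over the members and 0.00 over all genes, and 45 of 47 were positive. The 5 oligodendrocyte marker genes had a median of 0.26 in the same comparison, 0 of them called, with sums of 3984 to 5216 CPM in WT and 4330 to 7159 in AppNLGF_p16KO (medians 4448 and 4701). Their part in the members' values was not tested. By complex the medians were 0.18, 0.27, 0.33 and 0.20 in the order II to V. The groups did not overlap for 7 members, namely Cox6a1, Uqcrq, Cox8a, Cox5b, Atp5e, Atp5d and Atp5md, against 2.09% of all genes with every AppNLGF_p16KO library above every WT library. Without AppNLGF_p16KO 21 the test called 12 members, among 456 genes in place of 1857. Without AppNLGF_p16KO 23 it called 36 members, of which 35 were higher and Atp5l lower, among 4456 genes (2308 higher and 2148 lower). Leaving out WT 5 gave 14 members among 545 genes. The counts of members and of all genes thus moved together. The 12 members called in each of the 23 fits that left out 1 library were Cox6a1, Uqcrq, Cox8a, Cox5b, Cox6b1, Cox7a2l, Atp5e, Uqcrc1, Cyc1, Atp5mpl, Atp5d and Atp5j2.

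**Figure D2:**
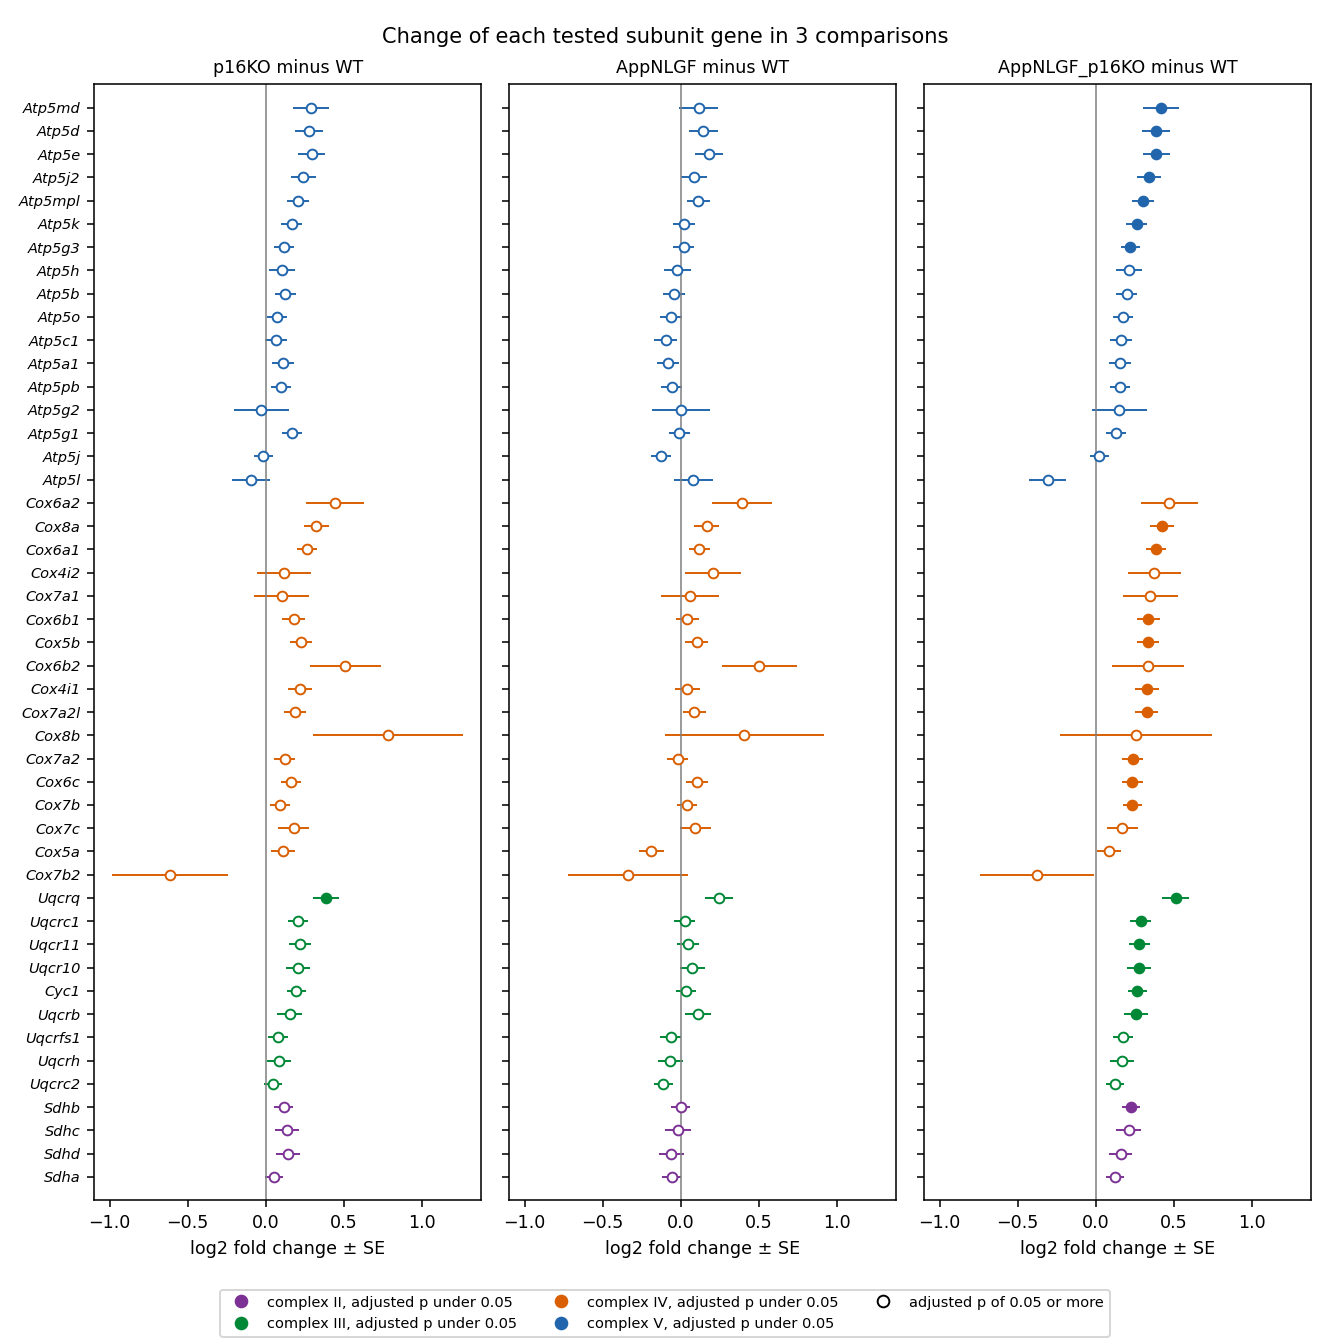
Log2 fold change ± SE of the 47 tested members, by complex, for p16KO, AppNLGF and AppNLGF_p16KO against the same 6 WT mice. Filled points have an adjusted p under 0.05: 1 in the left panel, 0 in the middle and 23 in the right.

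Transcript length moved with this result. Other protein-coding genes with transcripts of up to 1000 bases, 1025 tested, also tended upward, with a median of 0.18 and 261 called higher against 2 lower. For the 14382 with longer transcripts the median was 0.00. Most members are short, and when the trend of level on length was removed from each library, the members' median was 0.15 and 5 were still called, among 521 genes (403 higher and 118 lower). These were Uqcrq (log2 0.39, adjusted p = 0.0063), Cox6a1 (0.26, 0.0158), Cox8a (0.30, 0.0175), Cox5b (0.22, 0.0466) and Uqcrc1 (0.22, 0.0477). The uncalled values of Cox5a (-0.04) and Atp5j (-0.10) changed sign. The part that RNA quality or library preparation plays in this length trend was not tested.

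**Figure D3:**
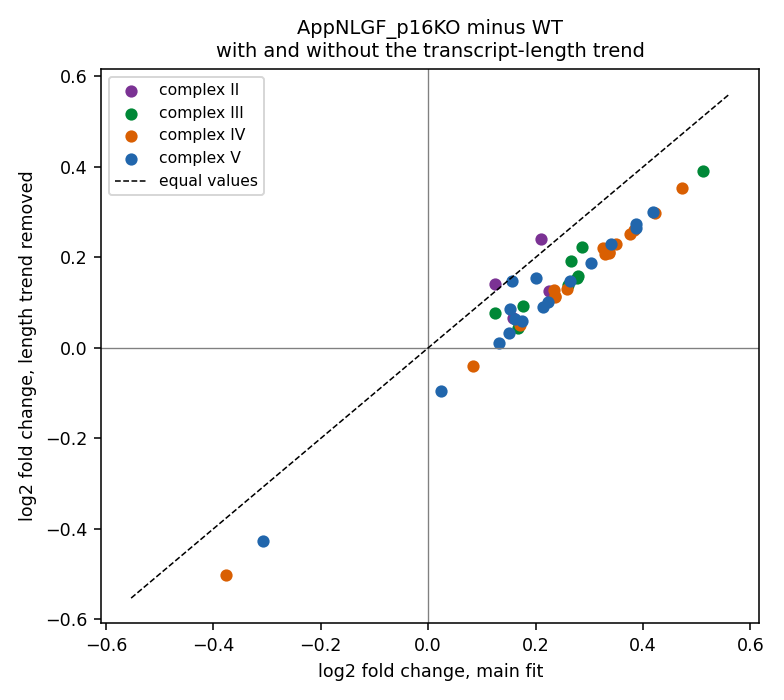
Log2 fold change of each tested member in AppNLGF_p16KO against WT, as fitted (horizontal) and after removal of the trend on transcript length (vertical), coloured by complex. Most points lie below the dashed line of equal values, and the median moves from 0.24 to 0.15.

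In complex II, 1 of 4 members rose in AppNLGF_p16KO. Sdhb, the iron-sulphur subunit that relays electrons to ubiquinone, ran from 114 to 131 CPM in WT (median 114), 122 to 136 in p16KO (median 127) and 114 to 153 in AppNLGF_p16KO (median 139). The 5 AppNLGF values were 125, 125, 116, 109 and 115 CPM. Of the AppNLGF_p16KO mice, 5 of 6 exceeded every WT mouse and library 23 lay below all of them, so the groups overlapped. The log2 fold change against WT was 0.23 ± 0.06 (SE) with an adjusted p of 0.021, but 0.0702 without AppNLGF_p16KO 21 and 0.0576 without WT 5. Sdhb lies on chromosome 4 (GRCm38, 140961203 to 140979193), the chromosome that also carries Cdkn2a, as does Uqcrh. Sdha (log2 0.12), Sdhc (0.21) and Sdhd (0.16) did not pass the test, with adjusted p-values of 0.149, 0.0817 and 0.174.

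In complex III, the member with the largest change was Uqcrq, a small subunit beside the ubiquinone site. Its level was 84.4 to 96.4 CPM in WT (median 88.5), 101 to 130.4 in p16KO (median 118), and 106 to 159.9 in AppNLGF_p16KO (median 120.4). The 5 AppNLGF mice gave 108, 116, 112, 92.9 and 99.3 CPM. Every p16KO and every AppNLGF_p16KO mouse lay above every WT mouse, and 1 AppNLGF mouse fell within the WT range. Against WT, Uqcrq was higher by a log2 value of 0.51 ± 0.08 in AppNLGF_p16KO (adjusted p = 0.00142) and 0.39 ± 0.08 in p16KO (adjusted p = 0.0433). Uqcrc1, a core protein of the matrix arm, ran from 203 to 251 CPM in WT (median 217) and from 232 to 323 in AppNLGF_p16KO (median 265), a log2 difference of 0.29 ± 0.07 (adjusted p = 0.0118). Cyc1, the cytochrome c1 that hands electrons to cytochrome c, ran from 142 to 164 and from 154 to 214 CPM (medians 149 and 179; log2 0.27 ± 0.06, adjusted p = 0.0125). For both genes only WT 1 reached into the range of the AppNLGF_p16KO mice. Of the small accessory subunits, Uqcr11 had medians of 56.8 in WT and 73.3 CPM in AppNLGF_p16KO (ranges 55.4 to 61.9 and 54.5 to 74.2; log2 0.28 ± 0.07, adjusted p = 0.0165). For Uqcr11, 5 of the 6 AppNLGF_p16KO mice were above all WT mice, and library 23 was below them. Uqcr10 had medians of 81.3 and 102 CPM (75.6 to 90.7 and 82.5 to 115; 0.28 ± 0.07, adjusted p = 0.0243), and Uqcrb 23.3 and 29.2 CPM (22.3 to 27.7 and 24.1 to 31.1; 0.26 ± 0.08, adjusted p = 0.039). Both overlapped. The Rieske protein Uqcrfs1 (0.18), Uqcrh (0.17) and the core protein Uqcrc2 (0.12) were not called, with adjusted p-values of 0.0766, 0.153 and 0.176.

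Complex IV had the most called members. Cox6a1, which sits at the interface of the dimer, ran from 236 to 269.8 CPM in WT (median 243), 264 to 334 in p16KO (median 286), and 289 to 362 in AppNLGF_p16KO (median 314). The 5 AppNLGF values were 260.1, 286, 282, 247 and 262 CPM. All AppNLGF_p16KO mice lay above all WT and all AppNLGF mice. The log2 fold change against WT was 0.38 ± 0.06 (adjusted p = 0.00142). Cox8a, the smallest subunit, ran from 209 to 241 CPM in WT (median 225), 238 to 331 in p16KO (median 284) and 269.8 to 345 in AppNLGF_p16KO (median 291), with 245, 282, 268, 232 and 238 in AppNLGF. The AppNLGF_p16KO mice again lay above all WT mice, by a log2 value of 0.42 ± 0.08 (adjusted p = 0.0029). Cox5b, a zinc-binding subunit on the matrix side, rose from 58.6 to 70.6 CPM in WT (median 65.5) to 70.8 to 97.0 in AppNLGF_p16KO (median 80.9; 0.34 ± 0.07, adjusted p = 0.00698). The groups touched without overlapping, and 25.9% of the transcript windows of Cox5b are shared with 1 other gene.

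The remaining called members of complex IV overlapped between the groups. Cox6b1, on the face turned to cytochrome c, ran from 169 to 203 CPM in WT (median 177) and from 189 to 269 in AppNLGF_p16KO (median 233; 0.34 ± 0.07, adjusted p = 0.0077). Cox7a2l, known for linking complexes III and IV into supercomplexes, ran from 47.1 to 58.4 and from 51.1 to 75.2 CPM (medians 48.9 and 63.1; 0.33 ± 0.07, adjusted p = 0.0102). Cox4i1 ran from 403 to 505 and from 434 to 649.9 CPM (medians 421 and 549; 0.33 ± 0.08, adjusted p = 0.0143). In these 3 genes AppNLGF_p16KO 23 was the 1 mouse of its group within the WT range, and WT 1 was the highest of the WT mice. Cox7b had medians of 119 and 141 CPM (109.7 to 125 and 116 to 156; 0.23 ± 0.06, adjusted p = 0.0221), and the common form Cox7a2 had 113 and 138 (106 to 126 and 109 to 149.7; 0.24 ± 0.07, adjusted p = 0.0265). Cox6c had 115 and 138 CPM (110.0 to 127 and 114 to 155; 0.24 ± 0.07, adjusted p = 0.0277). In Cox7b and Cox7a2, 5 of 6 AppNLGF_p16KO mice were above every WT mouse. Of the other 8 tested members, 7 are minor forms or Cox7c, all at a WT mean of 3.08 CPM or less, with log2 values from -0.38 (Cox7b2) to 0.47 (Cox6a2) and none called. The level of Cox7c is uncertain, since 53.0% of its transcript windows are shared with other genes. Cox5a, a matrix-side subunit, was abundant and not called, at medians of 133 CPM in WT and 142 in AppNLGF_p16KO (0.08 ± 0.08, adjusted p = 0.511).

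**Figure D4:**
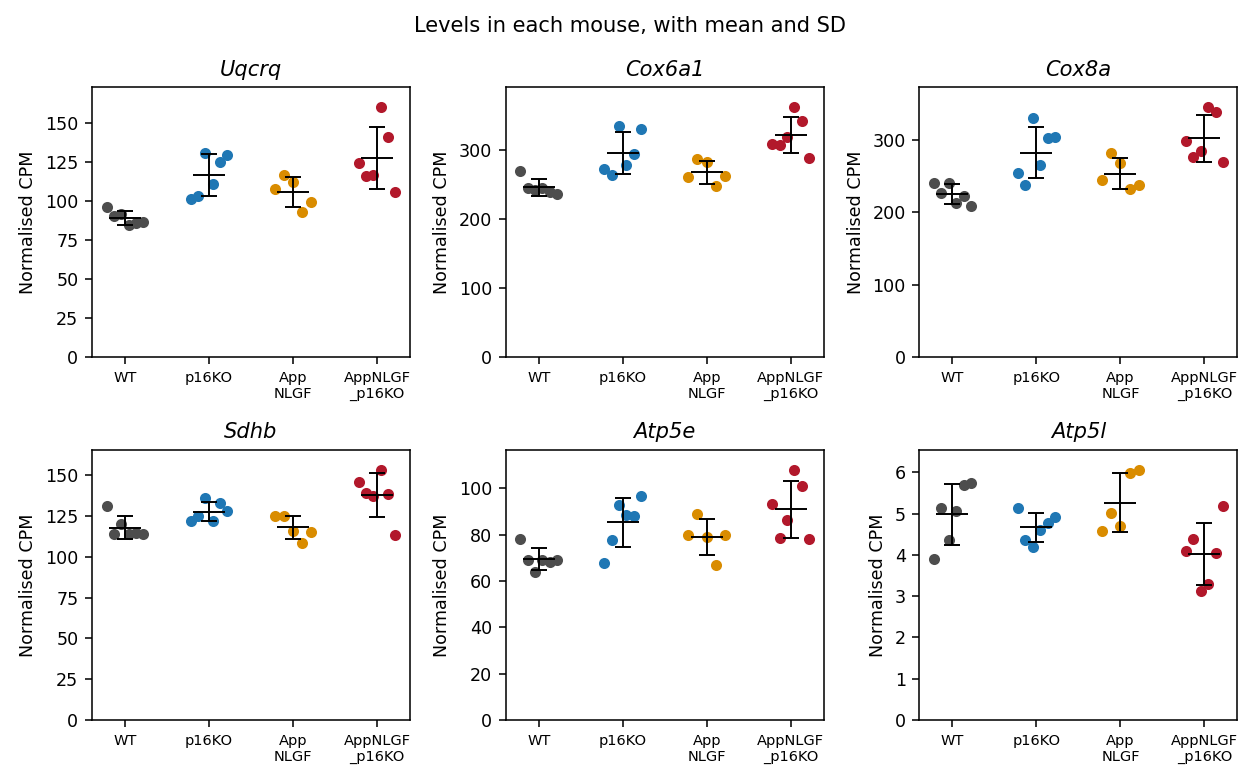
Normalised CPM of 6 members in each mouse, with group mean and SD, on axes that start at 0. In Uqcrq, Cox6a1, Cox8a and Atp5e every AppNLGF_p16KO mouse lies above every WT mouse, in Sdhb 1 does not, and Atp5l lies lower on average in AppNLGF_p16KO.

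In complex V the test called 7 of 17 members. Atp5e and Atp5d, the epsilon and delta subunits of the central stalk that turns inside the catalytic head, had no overlap with WT. Atp5e ran from 63.6 to 77.9 CPM in WT (median 69.0), 67.9 to 96.6 in p16KO (median 88.2) and 78.1 to 108 in AppNLGF_p16KO (median 89.8), with 79.7, 88.9, 78.9, 66.9 and 80.0 in AppNLGF. The log2 fold change against WT was 0.39 ± 0.09 (adjusted p = 0.0109). Atp5d ran from 148 to 177 CPM in WT (median 164) and from 186 to 262 in AppNLGF_p16KO (median 199.8; 0.39 ± 0.09, adjusted p = 0.0127). Atp5md, a subunit that helps ATP synthase pair into dimers, ran from 16.8 to 21.8 and from 22.6 to 30.9 CPM (medians 20.0 and 25.7; 0.42 ± 0.12, adjusted p = 0.0281). It too had no overlap, though 40.6% of its transcript windows occur in other genes. Around the membrane part, Atp5j2 (subunit f) had medians of 86.4 and 114 CPM (83.6 to 97.3 and 94.4 to 132; 0.34 ± 0.08, adjusted p = 0.0132). Atp5mpl, a small proteolipid, had 62.2 and 77.6 CPM (58.7 to 64.8 and 61.7 to 87.0; 0.30 ± 0.07, adjusted p = 0.0125), and Atp5k (subunit e) had 64.0 and 78.3 (60.4 to 72.6 and 66.6 to 90.7; 0.26 ± 0.07, adjusted p = 0.019). The main c-ring gene Atp5g3 had medians of 219.7 and 258 CPM (212 to 237 and 209 to 299; 0.22 ± 0.06, adjusted p = 0.0301). These 4 overlapped with WT.

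Atp5b, Atp5a1 and Atp5c1, the beta, alpha and gamma subunits, did not pass the test. Atp5b ran from 1226 to 1488 CPM in WT (median 1299) and from 1194 to 1761 in AppNLGF_p16KO (median 1563), a log2 difference of 0.20 ± 0.07 with an adjusted p of 0.0584, and was called by DESeq2. Atp5a1 had a log2 value of 0.16 (adjusted p = 0.143) and Atp5c1 one of 0.16 (adjusted p = 0.136). Also not called were the other c-ring genes Atp5g1 (0.13, 0.178) and Atp5g2 (0.15, 0.619) and the stator genes Atp5o (0.18, 0.0825), Atp5h (0.21, 0.0962) and Atp5pb (0.15, 0.122). Without AppNLGF_p16KO 23, these genes other than Atp5g1 and Atp5g2 were among the 36 called. Atp5j, another stator subunit, stayed at medians of 100.2 CPM in WT and 104 in AppNLGF_p16KO (0.02 ± 0.06, adjusted p = 0.836). Atp5l (subunit g) had the opposite sign, with 3.89 to 5.74 CPM in WT (median 5.09), 4.18 to 5.14 in p16KO (median 4.69) and 3.12 to 5.19 in AppNLGF_p16KO (median 4.07). The AppNLGF values of Atp5l were 4.57, 5.00, 4.71, 5.98 and 6.06 CPM. Its log2 fold change against WT was -0.31 ± 0.12 with an adjusted p of 0.0962. Only 1 AppNLGF_p16KO mouse was above the WT mean, the level was low, and most of the transcript is shared with other genes.

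Loss of p16 alone was compared with the same WT mice. In p16KO against WT, Uqcrq was the 1 member called of 47, while 0.263% of all genes were called higher and 0.0463% lower. It was also the 1 member whose groups did not overlap, against 1.2% of all genes. The members' median was 0.15, that of all genes -0.01 and that of the other short genes 0.12. Of the members, 43 were positive and 21 had an unadjusted p under 0.05, all higher, against 9.24% of all genes higher and 6.57% lower. Next by p were Cox8a at 0.33 ± 0.08 (adjusted p = 0.0657) and Cox6a1 at 0.26 ± 0.06 (adjusted p = 0.0675), in each of which all 6 p16KO mice were above the WT mean. DESeq2 called these 3 genes, among 438 in all. The call of Uqcrq was kept in 11 of the 23 fits that left out 1 library, with adjusted p-values from 0.014 to 0.154, and was lost with the length trend removed (log2 0.30, adjusted p = 0.0778). It was lost on omission of WT 2, 3, 4, 5 or 6, of p16KO 9, 10, 11 or 12, of AppNLGF 15 or 17, or of AppNLGF_p16KO 18. With the length trend removed, the medians of the members, all genes and the other short genes were 0.10, 0.02 and 0.06.

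The App knock-in alone called no member by edgeR or DESeq2, with 0.319% of all genes called by edgeR in either direction. The median was 0.04 over the members, 0.00 over all genes and 0.05 over the other short genes, and 30 of 47 members were positive. With the length trend removed the direction turned, to a median of -0.04 with 17 of 47 positive. Unadjusted p-values were under 0.05 for 2 higher members and 1 lower, against 4.35% of all genes higher and 4.19% lower. Uqcrq was higher by 0.25 ± 0.09 (adjusted p = 0.404) and the testis form Cox6b2 by 0.50 ± 0.24 (adjusted p = 0.577). Cox5a was lower by a log2 value of -0.19 ± 0.08 (adjusted p = 0.533), with 116, 128, 107, 108 and 119.8 CPM in the 5 AppNLGF mice against 116 to 144 in WT (median 133). All 5 were under the WT mean, and the ranges overlapped.

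Loss of p16 on the App knock-in background was read from the mice that carry the knock-in. In AppNLGF_p16KO against AppNLGF the median was 0.23 over the members, 0.01 over all genes and 0.14 over the other short genes, and 43 of 47 members were positive. edgeR called 0 members, the lowest adjusted p being 0.112, and 0.0309% of all genes. Unadjusted p-values were under 0.05 for 36 members that were higher and for Atp5l, which was lower, against 12.8% of all genes higher and 10.8% lower. With the length trend removed, the medians of the members, all genes and the other short genes were 0.20, 0.05 and 0.10. DESeq2 called 4 members, namely Cox6a1, Cox6b1, Uqcrc1 and Uqcrc2, among 198 genes. The median of the oligodendrocyte marker genes was 0.22 here, with 0 called. Cox6a1 at 0.26 ± 0.07, Cox6b1 at 0.29 ± 0.07 and Uqcrc1 at 0.26 ± 0.07 had the smallest p in edgeR (adjusted p = 0.112 for each), and Cox6a1 was the 1 member whose groups did not overlap, against 0.608% of all genes. The count turned on library AppNLGF_p16KO 23: without it 34 members were called, 33 higher and Atp5l lower, along with 4156 genes in all in place of 6.

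The App knock-in was also compared on the p16KO background. In AppNLGF_p16KO against p16KO the median was 0.10 over the members, 0.01 over all genes and 0.06 over the other short genes, with 41 of 47 positive. No member was called by edgeR or DESeq2, against 0.247% of all genes by edgeR, and 2 were higher with an unadjusted p under 0.05, against 4.59% of all genes. These were Cox7b at 0.14 ± 0.06 (adjusted p = 0.575) and Cox6b1 at 0.16 ± 0.07 (adjusted p = 0.595). Next by p was Cox7a2l at 0.14 ± 0.07 (adjusted p = 0.668). Without AppNLGF_p16KO 21 the members' median was 0.05 and 0 had an unadjusted p under 0.05, while without AppNLGF_p16KO 23 these were 0.14 and 23, with 0 called in both. With the length trend removed the median was 0.05. These comparisons share groups with each other, so their values stand side by side and are not independent.

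The test of whether the effect of p16 loss differed between the App backgrounds called 0 members with edgeR and 0 with DESeq2, and edgeR called 0 of all genes. The median interaction was 0.06 over the members and 0.00 over all genes. Uqcrc2 was the 1 member with an unadjusted p under 0.05, at 0.19 ± 0.09 (adjusted p = 0.897), against 3.13% of all genes with a positive value. Without AppNLGF_p16KO 23 the median was 0.12 and 15 members had an unadjusted p under 0.05, and without AppNLGF_p16KO 21 the median was 0.01 with 1 such member, with 0 called in both. A difference of the p16 effect between backgrounds was therefore not shown for any member.

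Members moved together between mice of the same genotype. After subtraction of the group means, the median pairwise correlation (r) over the 37 members of at least 20 CPM was 0.733 across 23 libraries. It was 0.734 for pairs in the same complex and 0.733 for pairs in different complexes. All these pairs share libraries and their scaling, so this is a description. The median of the members, as log2 against the WT mean, lay between -0.07 and 0.13 for WT mice and between -0.10 and 0.11 for AppNLGF mice. For p16KO it lay between -0.01 and 0.26, and for AppNLGF_p16KO between -0.01 and 0.42. AppNLGF_p16KO 23 gave the lowest of these last values, and all other AppNLGF_p16KO mice lay above the highest WT mouse. Spread was widest in AppNLGF_p16KO, where the median coefficient of variation of a member was 11.5%, against 6.50% in WT, 6.68% in p16KO and 7.60% in AppNLGF.

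**Figure D5:**
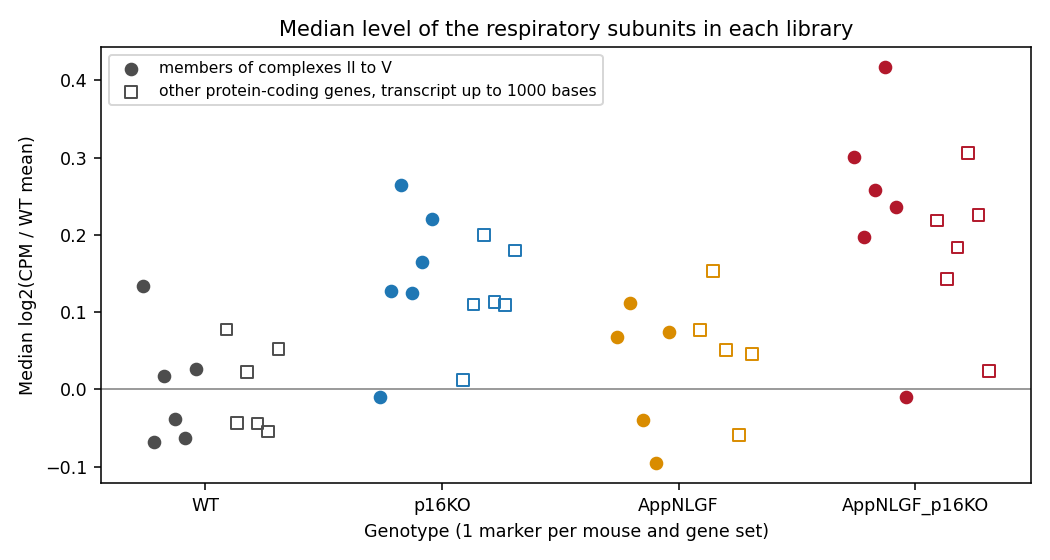
Median log2 level against the WT mean in each library, for the members (filled circles) and for other protein-coding genes with transcripts of up to 1000 bases (open squares), by genotype. AppNLGF_p16KO 21 is highest at 0.42 and AppNLGF_p16KO 23 lowest of its group at -0.01, and the open squares follow the circles.

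Genes around these complexes were compared from lists of known function, beside 6.1% of all genes called higher and 3.46% lower in AppNLGF_p16KO against WT, and 261 higher and 2 lower of the 1025 other short genes. Of 36 nuclear subunits of complex I, 25 rose in AppNLGF_p16KO against WT and 0 fell, with a median of 0.27. The largest change among the called was Ndufa11 (47.7 to 69.8 CPM; 0.55 ± 0.09, adjusted p = 0.00142). Of 34 assembly factors tested, 6 rose and 0 fell (median 0.13). They were Coa3 (0.32) and Cox14 (0.34), which act on newly made Cox1, Uqcc2 (0.37) for complex III, Surf1 (0.22) and Pet100 (0.22) for complex IV, and Sdhaf1 (0.26) for the iron-sulphur centres of Sdhb. Of 8 carriers and partners 4 rose, namely the phosphate carrier Slc25a3 (0.24), the adenine nucleotide carrier Slc25a5 (0.24), the outer membrane channel Vdac2 (0.22) and Ndufa4 (0.32), a subunit of complex IV despite its name and also on the list for complex I. Cytochrome c itself, Cycs, was not called (-0.06, adjusted p = 0.786). Of 12 regulators of mitochondrial biogenesis 0 rose and 2 fell. The coactivator Ppargc1a fell by 0.26 ± 0.08 on the log2 scale (59.5 to 49.5 CPM; adjusted p = 0.0406) and Yy1 fell by 0.13 ± 0.04 (88.0 to 80.4 CPM; adjusted p = 0.0412). Both lay near the threshold of 0.05, and their values under the alternatives are not given here. All genes called lower in this comparison numbered 672, but 118 with the length trend removed and 88 without AppNLGF_p16KO 21. Of the mitochondrially encoded subunits only mt-Co1 (0.21 ± 0.07, adjusted p = 0.0536) and mt-Cytb (-0.02 ± 0.06, adjusted p = 0.89) had enough counts to test, and neither was called. mt-Atp6, mt-Co2 and mt-Co3 had at most 3 reads in any library. Genes of mitochondrial DNA together took 2.79% to 3.99% of the counts of a library. Whether reads of these 3 genes were discarded or counted elsewhere was not tested, so their counts are not given as levels.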

How the data were processed

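Raw read counts per gene were the values used. They came from stranded poly-A libraries of 50-base single reads, per the labels' protocols. The authors deposited counts with no normalisation, made with cutadapt 4.2, Bowtie2 2.3.5 and STAR 2.7.10b on GRCm38, per the submitters' processing notes, which also name DESeq2 1.45.3 and a later build. All 48 members had the coordinates of GENCODE M21 (GRCm38). The members and gene lists were chosen with earlier results of these data known.

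The main test was edgeR 4.0.16 in R 4.3.3 (TMM, quasi-likelihood F test, robust, 1 mean per genotype over all 23 libraries), two-sided, on 19423 genes kept by filterByExpr with a minimum count of 10. Benjamini-Hochberg adjustment ran over those genes, with a threshold of 0.05. CPM are counts scaled to a common library size after TMM, and factors ran from 0.981 to 1.01. Levels per kb used the median-length APPRIS principal transcript of GENCODE M21. The letters searched for nuclear respiratory factor 1 are the core of a longer form that matched fewer windows, of members and of all genes, and were chosen after the longer form's matches were seen. Full values were given for each called member and, where none was called, the 3 with the smallest p, for the most abundant member of each complex and for minor forms. The biological coefficient of variation was 15.8%. In data simulated for AppNLGF_p16KO minus WT on 19423 genes with 200 changed, the test recovered 12% of the genes changed by a factor of 1.2. It recovered 56%, 70% and 92% at factors of 1.5, 2 and 4, and 3 of 118 calls were false. The changed genes were picked at random and each gene was drawn separately, without variation shared between genes or a length trend. These shares therefore do not carry over to the real comparison or to the members. Alternatives were DESeq2 1.42.0, RLE factors, 2 other count filters (15 reads in 90% of libraries, and none), the compared groups alone, 1 surrogate variable (sva 3.50.0), a sex score, removal of a spline trend on transcript length, and omission of single libraries. Reads carried no molecular identifiers, so statements on depth cover counting error only.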

Additional observations from a re-analysis of the deposited data

Results flagged for a closer look

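Within-group spread was checked for the 23 members called in AppNLGF_p16KO against WT and for the members' median, over 96 groups of 5 or 6 mice. In 7 groups 1 mouse lay far from the others by Dixon's criterion, which by chance marks about 1 in 20 groups. WT 1 was the high value in 6 of them, namely Cox6a1 (269.8 CPM, others 236 to 245), Cox7a2l (58.4, others 47.1 to 51.0), Cyc1 (164, others 142 to 150.1), Atp5j2 (97.3, others 83.6 to 87.6), Cox4i1 (505, others 403 to 436) and Sdhb (131, others 114 to 120.1). AppNLGF_p16KO 23 was the low value for Uqcr11 (54.5 CPM, others 70.1 to 74.2). The genes vary together between mice, so these are not separate events.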

How the results depend on the processing

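No paired analysis was possible because the replicate numbers run from 1 to 23 across the genotypes and none is shared. In AppNLGF_p16KO against WT, 23 members were called in the main test, 5 with the length trend removed and 12 without AppNLGF_p16KO 21, and leaving out each library in turn gave 12 to 36. All genes called there were 1857, and 1072 with no count filter, 604 with the groups alone, 521 with the length trend removed, 456 without the distant library (AppNLGF_p16KO 21) and 456 to 4456 on leaving out single libraries. In p16KO against WT, 1 member was called, 3 with the stricter filter, 2 with no filter, 5 with the groups alone, 0 with the length trend removed, 3 with DESeq2, 3 without the distant library and 0 to 4 on leaving out single libraries. All genes called there were 60, and 356 with the groups alone, 438 with DESeq2, 189 without the distant library and 7 to 239 on leaving out single libraries. In AppNLGF_p16KO against AppNLGF, DESeq2 called 4 members and single omissions 0 to 34, and all genes called, 6, became 3 with the stricter filter, 17 with no filter, 0 with the groups alone, 198 with DESeq2 and 2 to 4156 on leaving out single libraries. In AppNLGF_p16KO against p16KO, all genes called, 48, became 19 with the groups alone, 101 with DESeq2, 29 without the distant library and 29 to 61 on leaving out single libraries. In AppNLGF against WT, DESeq2 called 153 genes in place of 62, and for the interaction 1 in place of 0. The members' median in AppNLGF_p16KO against WT stayed between 0.15 and 0.28 under all alternatives. The causes of these shifts were not tested. Depth did not limit the abundant members, and the minor forms, at few reads, are limited by counting error.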
